A study of Mus musculus with 5 samples.

Results

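DN3 thymocytes, the double negative cells that have lost CD44 and still carry CD25, were set against 4 other thymocyte populations, DN1, DN2, pre-double positive (preDP) and double positive (DP). The members are the genes whose signal was highest or lowest in DN3. Signals at or under a floor of 130.4, the median of all gene probe set values, were treated as equal to it. DN3 was the highest array for 723 of the 4621 genes above the floor in DN3 (15.6%), and the lowest for 460 of the 4038 genes above the floor in all 4 other populations (11.4%). Together these were 1183 of 8251 genes on the array. Most of these margins were small, and the text turns on the genes separated from every other array by at least 2-fold or 1.5-fold. Each population had 1 array and no replicate. Every fold therefore compares single arrays, no test between samples was possible, and precision is limited by this number.

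The mice were male, of genotype C57BL6 and 5 weeks old, and thymuses of 10 mice were used for the sorts. Whether cells of the mice were pooled is not given in the sources used here. DN1 (CD44 high, CD25 negative), DN2 (CD44 high, CD25 positive), DN3 (CD44 low, CD25 positive) and preDP (CD44 low, CD25 negative) were lineage negative, CD24 positive cells of blast-enriched thymocytes. DP cells carried CD4 and CD8 and came from total thymocytes, so stage and cell source cannot be told apart for DP. The cells carried no transgene, deletion or treatment that the labels name. In such bulk samples, fewer cells of a type and less RNA per cell cannot be told apart.

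At the DN3 stage a thymocyte rearranges its T-cell receptor beta locus and pairs the new beta chain with an invariant partner, pre-T alpha, and the CD3 chains. Only cells that assemble this pre-T-cell receptor pass on towards the CD4 and CD8 positive stage, a step known as beta selection. Notch receptors on the thymocyte, engaged by ligand on the thymic epithelium, release an intracellular fragment that joins the DNA-binding protein RBPJ to switch on target genes, and DN3 cells depend on this signal.

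The label was checked against the sorted surface proteins. Il2ra, which encodes CD25, had a signal of 439 in DN3 and 1157 in DN2, and was at or under 65.8 in DN1, preDP and DP. Cd8a was at 73.0 in DN3, under the floor, and Cd4 at 132, just above it. Cd8b1, the other CD8 chain, was above the floor at 319 in DN3, with 342 in DN1, 19.4 in DN2 and 28020 in DP. Its probe set has the suffix _s_at and may also read related transcripts. Cd24a was 14356 in DN3 and between 6849 and 10225 elsewhere. Cd44 was under the floor on every array and checks nothing. The proposed DN3 markers Notch3, Dtx1, Ptcra and Itgb4 all had their highest signal in DN3. Those 4 were chosen with earlier results of these arrays known, so they describe the library and do not test it.

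Among measures of the whole array, DN3 had the highest actin ratio and the brightest spiked controls of the 5, both by small margins, and their part in the results was not tested. Between 4522 and 4935 genes were above the floor on each array, 4621 of them in DN3. The actin probe sets, whose 3'/5' ratio is used to judge RNA, gave a ratio of 3.31 in DN3 and between 2.79 and 3.08 elsewhere. For Gapdh it was 1.76 in DN3 and between 1.39 and 2.04 elsewhere. The 9 probe sets of spiked hybridisation controls averaged 0.21 above the median of the other arrays in DN3 (log2). The other arrays ranged from -0.29 to 0.16. The transcript of the inactive X chromosome, Xist, is not expected at a high level in cells of male mice. Its signal was 376 in DN3 and 262 in preDP, 117 in DN1, 145 in DN2 and 7.0 in DP. Eif2s3y, a gene of the Y chromosome read by a probe set that may also read related genes, was 204 in DN3, 225 in preDP, 404 in DN1, 450 in DN2 and 857 in DP. Of 9 probe sets of Y chromosome genes this was the 1 above the floor on any array. Xist was thus highest and Eif2s3y lowest in DN3. The part of the mice's sex, or of a mix of mice, in any result was not tested.

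The sequence just before the start of 3 of the genes that set DN3 apart is shown because these genes are read together below as parts of the Notch and pre-T-cell receptor systems. The sequences are the 250 bases before the start in RefSeq (build GRCm38.p6), 5′ to 3′ on the gene's strand. Capitals mark TGGGAA, the core letters of the RBPJ site, searched on both strands (reverse complement TTCCCA).
Ptcra (chr17:46763713-46763962, minus strand): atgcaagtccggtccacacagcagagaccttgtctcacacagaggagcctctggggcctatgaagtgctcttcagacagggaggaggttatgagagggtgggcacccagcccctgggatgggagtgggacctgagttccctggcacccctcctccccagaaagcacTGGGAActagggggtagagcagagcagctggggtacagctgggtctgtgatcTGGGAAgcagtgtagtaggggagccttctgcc
Notch3 (chr17:32166891-32167140, minus strand): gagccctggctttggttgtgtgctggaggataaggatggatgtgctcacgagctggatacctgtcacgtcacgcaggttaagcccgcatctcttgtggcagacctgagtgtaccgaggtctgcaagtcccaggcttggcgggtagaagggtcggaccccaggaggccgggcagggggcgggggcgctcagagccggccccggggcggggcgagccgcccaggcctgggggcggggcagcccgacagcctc
Dtx1 (chr5:120711670-120711919, minus strand): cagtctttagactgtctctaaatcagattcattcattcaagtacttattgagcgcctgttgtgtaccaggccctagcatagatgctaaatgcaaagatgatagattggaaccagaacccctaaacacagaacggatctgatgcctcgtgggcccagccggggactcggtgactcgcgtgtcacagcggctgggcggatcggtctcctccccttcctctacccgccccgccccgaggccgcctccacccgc
The Ptcra promoter held the letters at -84 and -32, the place of their first base relative to the gene's start, both on the gene's own strand. The windows of Notch3 and Dtx1 did not hold them. Of the 8 genes at least 2-fold above every other array in DN3, 6 had a promoter in the table, and Ptcra was the 1 gene of these 6 with a match. Over all 32851 promoters of the table, 21.6% held the letters. The E-box letters CACCTG (reverse complement CAGGTG) are bound by E proteins. They were in the windows of 3 of the 6 genes, Ctla4, Rab3a and Pgam2, and in 17.2% of all promoters. The 6 genes had 7 promoters in the table, since Rab3a had more than 1, of which 1 held the E-box letters. The shares of 21.6% and 17.2% count promoters and not genes. A match of letters is a description and no evidence of binding.

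Few genes belonged to DN3 alone. At least 2-fold above every other array were 8 genes in DN3 (0.173% of 4621), against 305 in DN1, 18 in DN2, 3 in preDP and 220 in DP by the same rule. At least 2-fold below every other array were 2 genes in DN3 (0.0495% of 4038), against 46, 11, 10 and 143 in DN1, DN2, preDP and DP. At 1.5-fold the counts in DN3 were 21 above (0.454%) and 24 below (0.594%). DN3 lies between DN2 and preDP in the course of development, and its array resembled theirs. Across 5443 genes above the floor on at least 1 array, the correlation of log2 signal with DN3 was 0.97 for preDP, 0.95 for DN2, 0.87 for DP and 0.80 for DN1. Genes are not independent replicates, so these values only describe the arrays. Without DN2 in the comparison 25 genes were at least 2-fold above the rest in DN3 and 10 below, and without preDP 20 were above and 27 below. Without DP 12 were above and 5 below, and without DN1, 11 and 2.

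**Figure D1:**
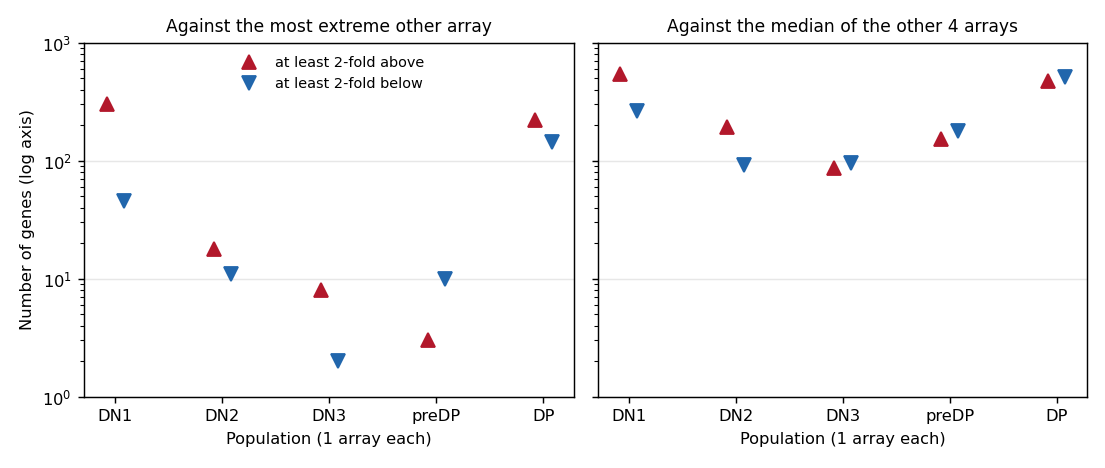
Number of genes (log axis) at least 2-fold above (red) or below (blue) the other populations, for each population in turn, 1 array each. The left panel compares with the most extreme other array and the right panel with the median of the other 4. DN3 had 8 and 2 genes on the left and 86 and 96 on the right, while DN1 and DP had the largest counts above.

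Among the 8 genes, 3 belong to the Notch system or are known Notch targets. Dtx1, which encodes Deltex 1, a ubiquitin ligase that regulates Notch receptors, had a signal of 1487 in DN3. It was 163 in DN1, 227 in DN2, 222 in preDP and 192 in DP. It stood 6.56-fold above the highest other array, the largest separation in DN3 of any gene with a probe set of its own, with the other 4 arrays close to each other and to the floor. Notch3, a Notch receptor, was 2152 in DN3 and 158, 682, 495 and 270 in DN1, DN2, preDP and DP. DN3 was 3.16-fold above DN2, the next array, so the signal was graded around DN3 rather than confined to it. Ptcra, the gene of pre-T alpha whose promoter is printed above, was 3692 in DN3. It was 17.0 in DN1 and 108 in DN2, both under the floor, and 1181 in preDP and 945 in DP. DN3 was 3.13-fold above preDP, and the populations before DN3 were under the floor whereas those after it were above it.

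The other 5 genes have other roles. Itgb4 encodes integrin beta 4, which pairs with alpha 6 as a receptor for laminin. Its signal was 937 in DN3 and 225 in DN2, and between 18.3 and 106, under the floor, in DN1, preDP and DP, a separation of 4.17-fold from DN2. Its partner Itga6 was 61.5 in DN3, under the floor, and highest in DP at 217. Khdc1c was 974 in DN3 and 454 in DN2, 2.14-fold apart, and at or under 56.2 elsewhere. Its probe set has the suffix _f_at and may read related genes. Ctla4, an inhibitory receptor of activated T cells, was 336 in DN3 and between 19.6 and 88.1 on the other arrays, all under the floor, so it was at least 2.57-fold higher in DN3. Pgam2, the muscle form of a glycolytic enzyme, was 263 in DN3 and between 4.80 and 11.9 elsewhere, at least 2.02-fold higher. Rab3a, a small GTPase of vesicle release, was 414 in DN3, 122 in DN1, 158 in DN2, 166 in preDP and 98.5 in DP, 2.49-fold above preDP. These last 3 genes had modest signals. With the floor at the 65th percentile, Ctla4 and Pgam2 were under the floor on every array and Rab3a was 0.29 above the next array (log2) in place of 1.32. With the mean over its 2 probe sets Rab3a was 0.66 above, but the second was under the floor on every array and is no second reading.

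**Figure D2:**
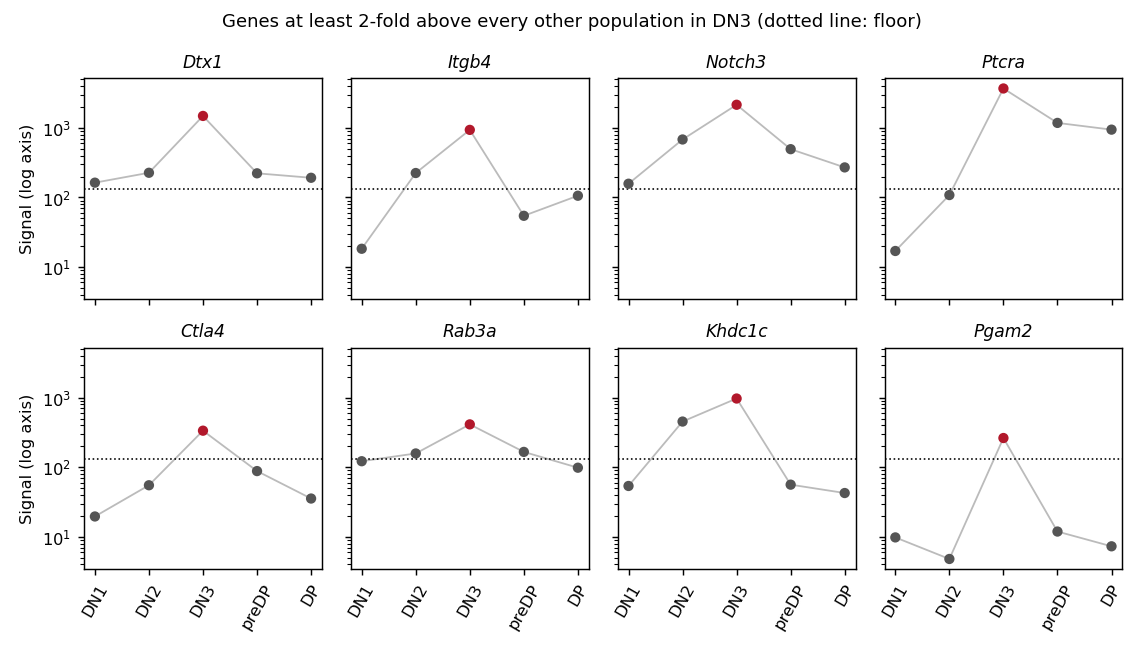
Signal (log axis) of the 8 genes at least 2-fold above every other population in DN3, with 1 array per population, DN3 in red and the floor of 130.4 dotted. Dtx1 reached 1487 in DN3 with all other arrays at or under 227, Ptcra stayed at 945 or more after DN3, and Itgb4 and Khdc1c were above the floor in DN2 and DN3 only.

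The 3 genes just outside 2-fold were Igf2 at 1.77-fold, Ly6d at 1.77-fold and Mmut at 1.69-fold, next to Rab3a, Khdc1c and Pgam2 just inside. Ly6d, a surface protein of lymphoid cells, was the brightest of them, at 15836 in DN3 and between 3480 and 8923 elsewhere. Hes1, a transcriptional repressor and a classic Notch target, was 1853 in DN3 and 1119 in DN2, 1.66-fold apart. It was 706 in DN1, 232 in preDP and 110 in DP, so its signal climbed up to DN3 and was low after it. Epcam, an epithelial adhesion molecule, was 216 in DN3 and under the floor on all other arrays, at least 1.65-fold higher. Of the 21 genes at least 1.5-fold above every other array, the next array was above the floor for 16. It was DN2 for 10 of these, preDP for 5 and DP for 1. The order was reversed over all genes highest in DN3 by any margin. Of the 682 whose next array was above the floor, it was preDP for 308, DN2 for 196, DP for 90 and DN1 for 88. None of the 21 genes had a second probe set above the floor, although 4 had a second probe set, so no second reading of these genes could be had.

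At the low end preDP was the array next above DN3 for 196 of all 460 genes lowest in DN3. DN2 was next for 131, DN1 for 82 and DP for 51. Among the 24 genes at least 1.5-fold lower, preDP was next for 16. Cd52, a small surface glycoprotein of lymphocytes, was 336 in DN3. It was 10041 in DN1, 1403 in DN2, 863 in preDP and 6652 in DP, so DN3 was 2.57-fold below preDP, the next lowest. Itgb7, the integrin beta 7 chain of gut-homing receptors, was 285 in DN3 and 4116, 1176, 581 and 614 in the other populations in stage order. It was 2.04-fold below preDP, and 0.51 below (log2) in place of 1.03 with the mean over its 2 probe sets, the second of which was under the floor on every array. These were the 2 genes past 2-fold. Just outside were the tetraspanin gene Tspan32, at least 1.99-fold lower, Il10rb, a chain of the interleukin 10 receptor, 1.97-fold lower, and the adaptor gene Grb7, 1.78-fold lower. Tspan32 was 33.6 in DN3, under the floor, 1637 in DN1, 676 in DN2, 260 in preDP and 2037 in DP. Il10rb was 158 in DN3 and 1170, 493, 312 and 475 elsewhere in stage order. Under a floor at the 65th percentile, 7 of the 15 genes named as lowest had a difference of 0.00 from the next array (Tspan32, Il10rb, Sat1, Lats2, Capn2, Rit1 and Stxbp3), and Grb7 was under the floor everywhere.

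Fyn, a Src family kinase of T-cell receptor signalling, was 252 in DN3 and 843 in DN1, 530 in DN2, 430 in preDP and 733 in DP. Its DN3 signal was 1.71-fold below that of preDP. Msn, which encodes moesin, a linker of the membrane to actin, was 1118 in DN3 and between 1960 and 3595 elsewhere, 1.75-fold below preDP. The other genes among the 15 lowest were Dcaf12, Sat1, Dip2b, Tes, Capn2 and Rit1, between 1.60-fold and 1.69-fold below the next array, and Lats2 and Stxbp3, which were under the floor in DN3 and at least 1.64-fold and at least 1.56-fold lower. Sat1 encodes an enzyme of polyamine breakdown, Lats2 a kinase of the Hippo pathway and Tes a protein of focal adhesions. Of the 24 genes at least 1.5-fold below every other array, preDP was the next lowest for 16, DN2 for 4, DN1 for 2 and DP for 2. A second probe set was above the floor for 2 of the 24 genes and was also lowest in DN3 for 1.

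**Figure D3:**
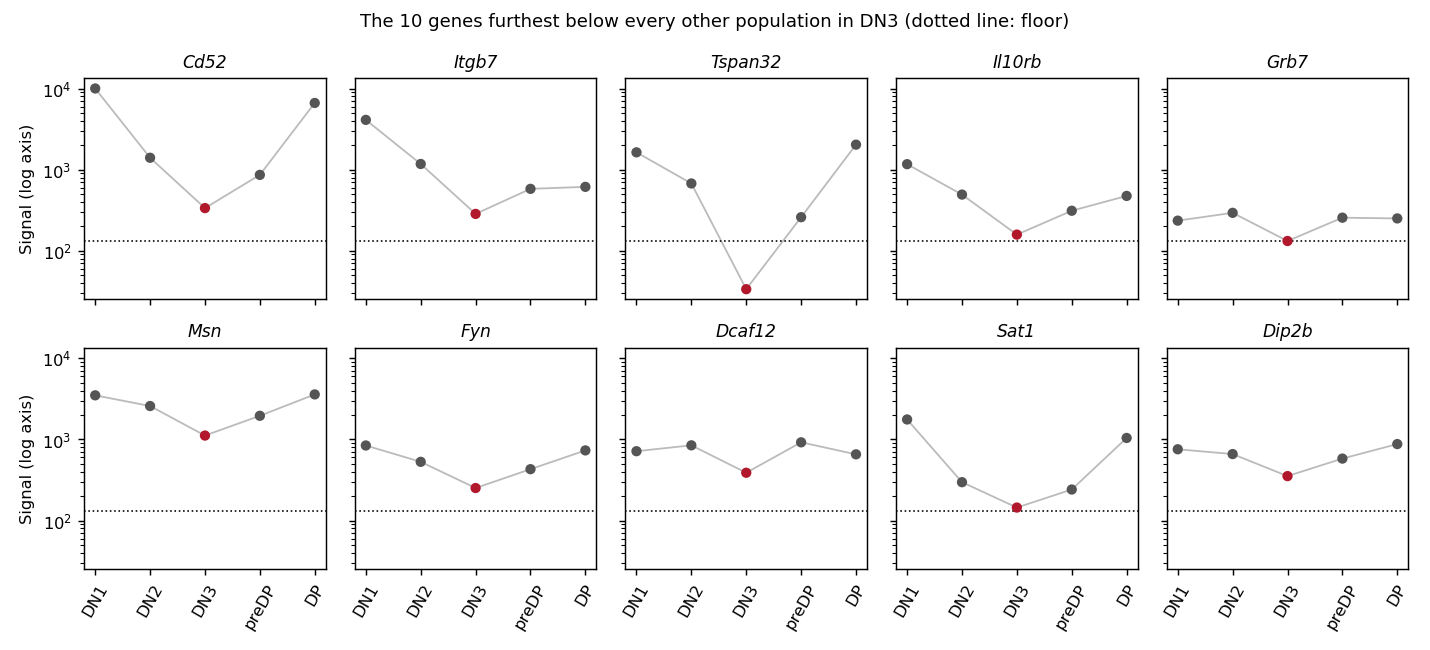
Signal (log axis) of the 10 genes with the largest separation below every other population in DN3, 1 array per population, DN3 in red and the floor of 130.4 dotted. Cd52 went from 10041 in DN1 to 336 in DN3 and 6652 in DP, and Tspan32 was the 1 gene of the 10 under the floor in DN3.

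Against the median of the other 4 arrays, which does not need DN3 to be the most extreme, 86 genes were at least 2-fold higher in DN3 (1.86% of 4621) and 96 at least 2-fold lower (1.99% of 4836). DN2 had 192 and 92 such genes, preDP 152 and 180, DN1 545 and 262, and DP 473 and 517. Of the 86 higher genes, DN3 was the highest array for 47. The separation lay mostly on the outer populations, since 74 of the 86 were at least 2-fold above DN1 and 72 above DP, but 39 above DN2 and 39 above preDP. Of the 96 lower genes, 92 were at least 2-fold below DN1, 65 below DN2, 60 below DP and 15 below preDP. The counts rest on the arrays compared. Without DN2 they were 198 higher and 116 lower, without preDP 195 and 210, without DP 95 and 145, and without DN1 90 and 57. Of the higher genes 5 had a second probe set above the floor, which was also above the median in all 5, and of the lower genes 18 had one, below the median in 14.

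The genes furthest above the median beside those already named were mostly strong in a second population too. Myl10, a myosin light chain gene, was 2744 in DN3 and 2219 in DN2, and 168, 186 and 32.2 in DN1, preDP and DP. It was 15.5-fold above the median, the largest such ratio. Gzma, a protease of cytotoxic granules, was 2902 in DN3 and 5036 in preDP and between 215 and 349 elsewhere, 9.61-fold above the median. Its probe set has the suffix _s_at and may also read related transcripts. The variable gene segments of the gamma chain, Trgv1 and Trgv4, had ratios of 5.26-fold and 5.51-fold. Trgv1 was 9748 in DN3 and 6958 in DN2, and Trgv4 was 14496 in DN3 and 24961 in DN2. Akr1c13, an aldo-keto reductase gene, was 1687 in DN3 and 1613 in DN2. Rag1, a subunit of the recombinase that cuts receptor gene segments, was 5816 in DN3, 3347 in preDP, 388 in DN2 and 40.5 in DN1, but 17836 in DP, and its log2 ratio to the median was 0.80 without DN1 or without DN2 in place of 2.35. Cd3d, a CD3 chain, was 5740 in DN3 and 6493 in DP, 3181 in preDP and at most 335 in DN1 and DN2, with a log2 ratio of 0.85 without either of these in place of 2.48. Notch1, the other Notch receptor of the series' title, was 6926 in DN3 and 7325 in DN2, 2.50-fold above the median but not the highest array.

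Pld4 and Spib had another shape. Pld4, a nuclease of the endolysosome, was 1556 in DN3, 2062 in DN1, 356 in DN2 and at most 117 in preDP and DP. Spib, an Ets family transcription factor, was 634 in DN3, 1030 in DN1 and at most 102 in DN2, preDP and DP. Both are also expressed by dendritic cells and B cells, and DN1 held high signal of those types. In DN3 the class II gene H2-Aa was 18.9 and H2-Eb1 was 105, both under the floor, as were Itgax at 106 and the B-cell gene Cd79a at 90.0. Other members were above it, among them H2-DMa at 1622, Cst3 at 2434, Cd79b at 1234, Ighm at 4110 and Blk at 681. In all, 11 of 16 measured dendritic cell markers and 6 of 14 B-cell markers were above the floor in DN3. Both shares were lower than that over all measured genes, 4621 of 5443. Of the dendritic cell list, 2 members were at least 2-fold above the median in DN3, Pld4 and Spib themselves, and 2 below, Cd74 and H2-Eb1. Its summed signal was 8573 in DN3, between 5640 and 10171 in DN2, preDP and DP, and 185073 in DN1. For B-cell markers the sums were 6918 in DN3, between 6994 and 10372 in the same 3 populations and 64494 in DN1. For myeloid markers they were 1431, between 834 and 3294, and 137248. Single genes held much of some sums. Ighm held 4110 of the B-cell sum in DN3 and 52870 in DN1, and Csf3r 553 of the myeloid sum in DN3. Above the floor in DN3 were 2 myeloid, 6 B-cell, 2 erythroid and 11 dendritic cell markers, and none of these had its highest signal there. Of 3 stromal and epithelial markers above the floor in DN3, 2 had their highest signal there. They were Epcam and Col1a2, the latter at 773 in DN3 and between 629 and 674 elsewhere. Over all genes above the floor in DN3 the share was 15.6%, and counts this small are given as a description. The part of other cell types in the DN3 signals was not tested.

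**Figure D4:**
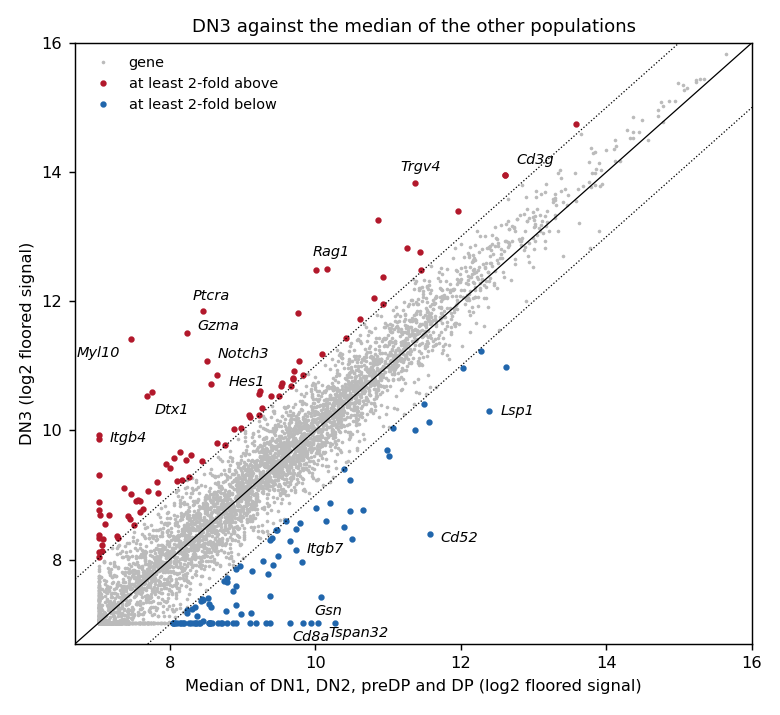
Floored log2 signal in DN3 (vertical) against the median of the other 4 arrays (horizontal) for the 5443 genes above the floor on at least 1 array, with lines of equal signal (solid) and 2-fold difference (dotted). The 86 red genes were at least 2-fold higher, among them Myl10, Ptcra and Gzma, and the 96 blue genes at least 2-fold lower, many of them at the floor in DN3.

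The genes furthest below the median were of several kinds. Cd8a and Cd8b1, the CD8 chains, were 73.0 and 319 in DN3 against 2031 and 6242 in preDP and 20020 and 28020 in DP. Without preDP or without DP the log2 ratio of Cd8b1 to the median was -0.10 in place of -2.19. Some genes were low in DN2 and DN3 together. Gsn, an actin-severing protein, was 46.1 in DN3, 142 in DN2, 375 in preDP, 2229 in DP and 3089 in DN1. St6gal1, a sialyltransferase, was 104 in DN3, 115 in DN2 and between 514 and 950 elsewhere. Itgb2, the beta chain of LFA-1, was 171 in DN3, 136 in DN2, 563 in preDP, 2093 in DN1 and 2637 in DP. Other genes were low from DN3 onwards. Lyl1, a progenitor transcription factor, was 67.1 in DN3 against 10202 in DN2, and also under the floor in preDP and DP. Adgrg3 and Napsa followed the same pattern, at 92.7 and 10.5 in DN3 against 5005 and 3172 in DN2. Without DN1 or without DN2 the log2 ratio of all 3 genes to the median was 0.00, since the median of the others was then at the floor. Others were low in DN3 and preDP. Il4ra, the interleukin 4 receptor chain, was 70.9 in DN3 and 119 in preDP, with 559 in DN2 and 2917 in DP. Lsp1, a leukocyte actin-binding protein, was 1263 in DN3 and 1114 in preDP, against 2817 in DN2 and 10219 in DP.

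Genes that DN3 shared with 1 neighbour were counted in a way chosen after the values had been seen. In 13 genes both DN2 and DN3 were at least 2-fold above the other 3 arrays, and in 7 both DN3 and preDP were. Among the first were Myl10, Trgv4, Il2ra, the interleukin 7 receptor gene Il7r and Notch1, with Il7r at 748 in DN3 and 1538 in DN2. Among the second were Gzma, Bcat1, a branched-chain aminotransferase, at 474 in DN3 and 827 in preDP, and Smo, the transducer of Hedgehog signals, at 741 and 769. In 7 genes both DN2 and DN3 were at least 2-fold below the other 3 arrays, and in 12 both DN3 and preDP were. DN1 and DN2 together had 82 genes above and 23 below, and preDP and DP 9 and 26.

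Gene lists were used to describe the genes of DN3 by system. All lists were chosen with earlier results of these data known, so they test nothing. Of 11 measured Notch target genes, 6 had their highest signal in DN3 (Hes1, Dtx1, Ptcra, Notch3, Gata3 and Igf1r), and 6 were at least 2-fold above the median of the other arrays. Over all genes the shares were 15.6% and 1.86%. The list's median log2 ratio to that median was 1.57, against 0.00 over all genes, and between 0.95 and 1.75 under the alternatives tried. Gata3 and Igf1r were nearly level with the next array, DN2. Gata3 was 1517 in DN3 and 1448 in DN2, and Igf1r 701 and 699. Hes5 and Hey1 were at or under the floor on every array, and Myc was 1014 in DN3 but 1347 in preDP. Since Dtx1, Ptcra and Notch3 also named the proposed markers, the list is no separate evidence.

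The list of the pathway's machinery had a median of -0.18, against 1.57 for the targets. Of 15 measured members, among them processing enzymes, sugar transferases and cofactors, none was 2-fold from the median in DN3. Over all genes 1.86% were 2-fold above and 1.99% below, so a count of none among 15 is not read as a difference. Rbpj was 246 in DN3 and between 180 and 396 elsewhere. Numb, an inhibitor of Notch, was 530 in DN3 and 1.12-fold above DP, the next array, and the corepressor gene Tle3 was 1.24-fold above DN2. Itch, a ubiquitin ligase that acts on Notch, was lowest in DN3 at 327, with 360 in preDP and 848 in DP. Of the other receptors Notch2 and Notch4 were under the floor in DN3, at 87.3 and 43.6.

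The receptor complex list had a median of 1.57 over 7 measured members. Of these, 5 were at least 2-fold above the median and none below, where all genes had 1.86% and 1.99%. Highest in DN3 were 2 of the 7, Ptcra and Cd3g, where the share over all genes was 15.6%. Cd3g was 15850 in DN3 and 1.40-fold above DP, while Cd3e was 7264 in DN3 and 8547 in DP. The list shares Ptcra and Cd3e with the Notch targets, and Cd3e is the middle member of both. Its median was between 1.0 and 2.14 under the alternatives. Recombination genes had a median of 0.39 over 7 members, and Dntt, which adds untemplated bases at the junctions, was 23181 in DN3 and 22878 in DP. Kinases and adaptors downstream had a median of -0.15 over 14 members, with Fyn and Lat2 at least 2-fold below the median and none above, where all genes had 1.99% below and 1.86% above. Zap70 was 4644 in DN3 and higher in preDP and DP. Over 19 transcription factors of the T lineage the median was 0.18, with Spib above and Bcl6 below, and the sign turned without DN1, at -0.28, and without DN2, at -0.14.

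Of 20 measured genes of adhesion and homing, Itgb4 was at least 2-fold above the median, and Itgb7, Itgb2 and Itgav were at least 2-fold below. For this list and those that follow, the shares over all genes were 1.86% above and 1.99% below, and a count of 1 to 3 genes is given as a description. Itgav was 357 in DN3 and 466 in preDP, and between 802 and 1043 in the other populations. Itgb1 was nearly level, at 4295 in DN3 and up to 5289 in DP. Among 22 cytokine receptor and signalling genes, Il7r, Il2ra and Socs3 were at least 2-fold above the median and Il4ra, Jak2 and Socs2 below. Socs3, an inhibitor of cytokine signals, was 536 in DN3 and 534 in DP, and between 187 and 226 elsewhere. Genes of S phase and of G2 and mitosis had medians of 0.05 and 0.05 over 23 and 26 members, with none 2-fold from the median. Their sign turned with the arrays compared, at -0.22 and -0.35 without DN1 or without DP, and 0.53 and 0.33 without DN2 or without preDP. The double positive stage list had a median of -0.34 over 17 members, with 6 at least 2-fold below and Rag1 and Ly6d above, but 0.02 without DP. Of 9 measured innate-like genes, Gzma was at least 2-fold above the median, and Tyrobp and Ccl5, at 82.0 and 54.2 in DN3, were at least 2-fold below. Gzma and Sox13 were the 2 above the floor in DN3. Prf1, the gene of perforin, was under the floor on every array and is not among the 9.

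**Figure D5:**
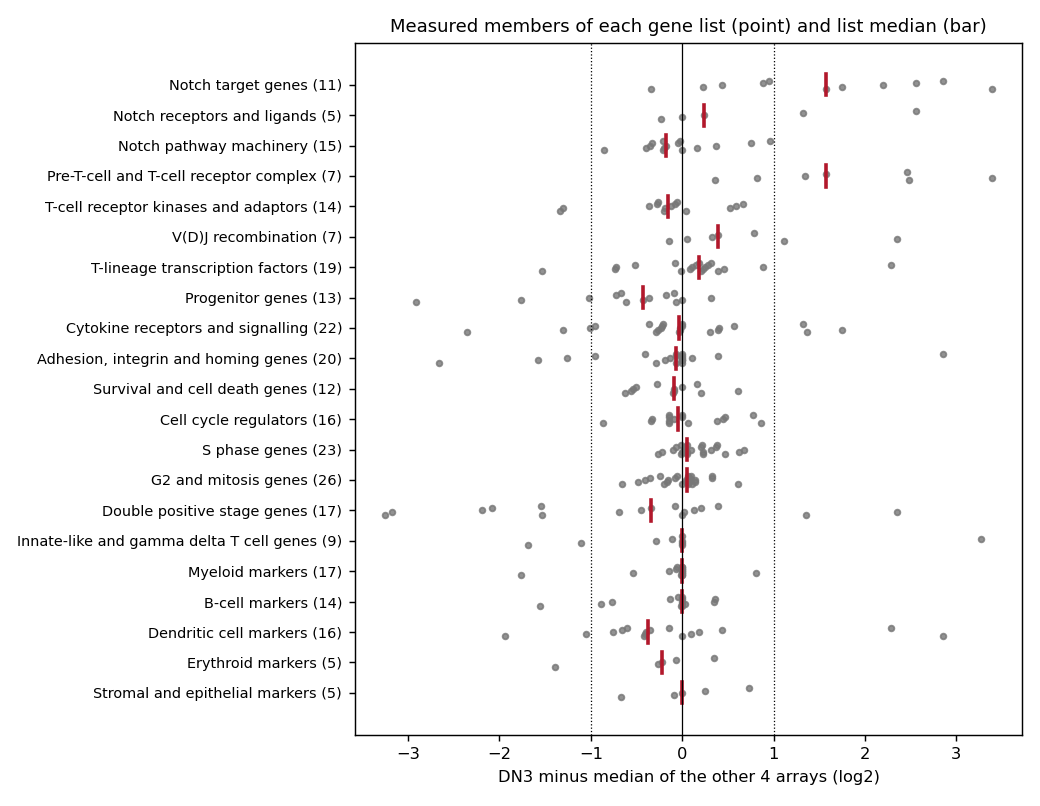
Log2 difference of DN3 from the median of the other 4 arrays for every measured member (points) of each list, with the number measured in brackets, the list median as a red bar and 2-fold as dotted lines. Notch targets and the receptor complex had medians of 1.57, and no other list was above 0.39.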

How the data were processed

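RNA of 5 sorted populations, 1 Affymetrix array each, was read as probe set signal intensity on a linear scale. Per the submitters' processing notes, the authors made the deposited intensities in Affymetrix Expression Console 1.0 by MAS5. Its settings are not stated there, and detection calls were not used here. The mean after trimming 2% at each end was 499.9 on every array, which hides any difference in overall mRNA content. Of 12488 probe sets, 10833 with 1 gene symbol, controls aside, were used. Of the rest, 396 had several symbols, 1193 none and 66 were controls. By gene identifier, 10817 of the named probe sets were found in RefSeq's genes of GRCm38.p6.

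Values under the floor (the 50th percentile, 130.4) were set to it before taking log2. Controls for 19 transcripts that were not spiked reached at most 67.6. The probe set with the highest mean log2 signal stood for each gene. DN3 was compared with the highest, the lowest and the median (of log2 values) of the other 4 arrays, and genes were counted by size. For a gene to count as higher, DN3 had to be above the floor. To count as lower, all other arrays, or their median, had to be above it. Where the lower array was at the floor, the fold is a lower bound and is written "at least". No test was possible. For 499 genes whose 2 brightest probe sets were both above the floor on all arrays, the 2 readings of the log2 ratio to the median differed with an SD of 0.36, that to the highest with 0.49 and that to the lowest with 0.44. That spread leaves out error shared by an array and variation between sorts or mice.

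Named are the genes 2-fold above the highest other array, the 15 furthest below the lowest, the next 10 each way against the median, members of 21 gene lists at least 1.5-fold beyond every other array, the sort markers and the 3 genes on each side of 2-fold. Other values were chosen after they were seen. The members and lists were chosen with earlier results of these data known. The counting was checked on simulated data. Python 3.11.15, numpy 2.4.6 and pandas 2.3.3 were used.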

Additional observations from a re-analysis of the deposited data

How the results depend on the processing

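No paired analysis was possible because each population had 1 array. Of the 8 genes above every other array in DN3, the 2 below, the 86 above the median and the 96 below it, the counts moved with the floor, the fold and the populations compared. With the floor at the 35th percentile they were 20, 11, 164 and 180, and at the 65th 5, 1, 54 and 48. At 1.5-fold they were 21, 24, 419 and 307, and at 3-fold 4, 0, 20 and 28. With equal medians 4 genes were below every other array, and with the mean over probe sets 1. With a population left out in turn the counts ran from 11 to 25, 2 to 27, 90 to 198 and 57 to 210. Without both DN1 and DP, a choice made after seeing the data, they were 20, 10, 51 and 57. All 8 genes were among those called under quantile normalisation, equal medians, the lower floor and a constant of 50. With the higher floor 5 of them were (Dtx1, Itgb4, Notch3, Ptcra and Khdc1c). With the mean over probe sets 7 were, Rab3a being lost. Without probe sets of a special suffix such as _f_at 7 were, Khdc1c being lost. Of 601 values of 51 named genes under 12 alternatives, 130 moved by more than the spread between probe sets. Of the 32 named genes at least 2-fold from the array or median compared, none changed sign, but 6 were under 2-fold with the higher floor, besides Ctla4 and Pgam2 under that floor everywhere, and 5 without DN1 or without DN2 (Adgrg3, Lyl1, Napsa, Cd3d and Rag1). Without preDP or without DP it was 1 (Cd8b1), and without both DN1 and DP 7, among them Notch1 at 0.68 and Il2ra at 0.18 (log2). Without probe sets of a special suffix 3 of the 32 had no value (Khdc1c, Gzma and Cd8b1).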

Other observations

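Probe sets without a single gene symbol, 1589 in all, stayed outside the counts above. Of the 551 of them above the floor in DN3, 1 was at least 2-fold above every other array, and none was 2-fold below. That probe set is listed under both H19, an imprinted RNA that is not translated, and Mir675, a microRNA gene that lies within it, so it was assigned to neither. Its signal was 5258 in DN3, 730 in DN2, 204 in preDP, 87.4 in DP and 82.4 in DN1. DN3 was 7.20-fold above DN2, a larger separation than that of any single-symbol gene, Dtx1 included at 6.56-fold. In the RefSeq gene table H19 and Igf2, an imprinted growth factor gene, lie near each other on the same chromosome. The brighter probe set of Igf2 was also highest in DN3, at 325, with 183 in preDP and at most 113 elsewhere. Its second probe set was 33.7 in DN3 and at most 12.0 elsewhere, under the floor on every array.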
